A study of Mus musculus with 12 samples.

Results

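Mouse embryonic stem cells that carried a netrin-1 transgene intact for the receptor Unc5b were set against cells that did not, as 6 against 6 RNA-seq libraries. The 6 libraries of the intact groups were the 3 labelled netrin-1 WT, which carried the wild-type protein, and the 3 labelled neo1 MUT, whose point mutation is named for the receptor neogenin (Neo1). The 6 libraries of the other groups were the 3 labelled unc5B MUT, whose point mutation is named for Unc5b, and the 3 labelled control, which carried the empty vector. These are all 12 libraries of the series, and they were assigned by their labels and not by any measured value. All were cells of the CGR8 line, which was derived from mouse embryos, kept in serum with leukemia inhibitory factor (LIF) and stably transfected with the ppy-cagg-ires-puro vector, empty or with a transgene. That vector drives constant expression from the CAG promoter together with puromycin resistance. The labels state neither the mutated residues, nor a measured loss of binding, nor whether a group was 1 clone or a pool, nor that its 3 libraries came from separate cultures, so the p-values measure the spread between these libraries. Each group has libraries numbered 1, 2 and 3, and the mean of the intact groups was compared with the mean of the other groups with the number as a block.

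Netrin-1 is a secreted protein related to laminins, best known for guiding axons. Its receptors include Dcc, neogenin and the Unc5 family. Unc5b is called a dependence receptor because it can trigger cell death when it is not bound by ligand, and neogenin also binds the repulsive guidance molecules. In serum and LIF, embryonic stem cell cultures are mixed: most cells express pluripotency genes, a few switch on genes of primitive endoderm (the tissue of the blastocyst that lines the blastocoel and later forms the yolk sac), and a few pass through a state that resembles the 2-cell embryo. The comparison asks which genes follow the presence of a netrin-1 that can engage Unc5b, whether or not it can engage neogenin.

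The libraries held 22256195 to 59735737 estimated counts each, over 52661 genes, of which 21053 passed the filter on low counts. The libraries numbered 3 stood apart from all others in every group. The first principal component, with 70.2% of the variance, separated them, and their deviations from the group means correlated at -0.83 to -0.60 with those of numbers 1 and 2. The 4 groups each had 1 library of each number, so the sides were balanced for it. A sum over 7 markers of embryonic stem cells came to 3819 to 4015 CPM (counts scaled to a common library total) in netrin-1 WT, 3202 to 3871 CPM in neo1 MUT, 3484 to 4016 CPM in unc5B MUT and 3458 to 4025 CPM in control, so the labelled cell type had its defining genes in every library.

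The transgene was seen as Ntn1 RNA in all 3 groups with a transgene. Ntn1 (chr11:68209364-68400823, minus strand, GRCm38), the gene for netrin-1, had 288, 223 and 76.9 CPM in netrin-1 WT, 219, 201 and 56.4 CPM in neo1 MUT, 322, 204 and 34.9 CPM in unc5B MUT and 15.4, 9.09 and 0.782 CPM in control, each in the order of numbers 1 to 3. Every transgene library was above every control library, and unc5B MUT overlapped both intact groups. The log2 fold change of Ntn1 between the sides, 2.44 ± 0.23 (SE), was therefore that of 1 group, control, and it differed between the pairings of the comparison: 4.85 ± 0.36 for netrin-1 WT over control and 0.03 ± 0.30 for neo1 MUT over unc5B MUT. The RNA level says nothing of the mutations themselves, so the mutants could not be checked here. Unc5b RNA had 19.6, 26.3 and 17.4 CPM in netrin-1 WT, 28.2, 31.8 and 17.52 CPM in neo1 MUT, 25.1, 24.8 and 16.4 CPM in unc5B MUT and 24.1, 25.7 and 23.2 CPM in control, and Neo1 RNA had 71.6 CPM in netrin-1 WT, 60.4 in neo1 MUT, 64.04 in unc5B MUT and 62.9 in control. For both receptors the groups overlapped, with adjusted p-values of 0.97 for Unc5b and 0.69 for Neo1. Dcc did not pass the filter, at no more than 1.25 CPM in netrin-1 WT, 0.0523 CPM in neo1 MUT, 0.0871 CPM in unc5B MUT and 0.133 CPM in control.

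Over all genes, 2263 of 21053 passed an adjusted p of 0.05 between the intact groups and the others, 10.7%. Of these 1003 were higher in the intact groups (4.76% of genes tested) and 1260 were lower (5.98%). Most differences were modest: the median log2 fold change was 0.70 among the higher and -0.67 among the lower genes, and 280 of the higher and 404 of the lower genes changed by at least 2-fold. In 511 of the higher and 714 of the lower genes, both intact libraries of each number lay on the same side of both others; over all tested genes, called or not, this held for 747 above (3.55%) and 935 below (4.44%). All 6 intact libraries lay above all 6 others for 110 genes (0.522%) and below them for 213 (1.01%).

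The count of called genes rested on single libraries. It was 1125, 1080 and 4210 without netrin-1 WT 1, 2 and 3, and 1507, 1384 and 1505 without neo1 MUT 1, 2 and 3. It was 848 and 979 without unc5B MUT 1 and 2, and 1146 without control 1 or control 2. Without the block for the number it was 129, all of them among the 2263. From the libraries numbered 1 and 2 alone it was 5354, and the lists described below then had 10 lower primitive endoderm factors, 19 lower effectors, 8 higher 2-cell-like genes and 9 lower stress genes.

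The comparison can be divided into a first and a second pairing that share no library: netrin-1 WT over control and neo1 MUT over unc5B MUT. The log2 fold changes below are given with their standard error after ±. The first pairing alone had 737 genes past the threshold (3.5%), with 1.74% of genes higher and 1.76% lower. The second had 1026 (4.87%), with 1.59% higher and 3.28% lower. Both pairings called 237 genes, 32.2% of the first list and 23.1% of the second, and 218 of these moved the same way, 58 up and 160 down. Among the 2263 genes called between the sides, 220 passed in both pairings, 995 in 1 pairing and 1048 in neither. With 1 library left out the first pairing called 211 genes (without control 1) to 1861 (without netrin-1 WT 3), the second 133 (without unc5B MUT 1) to 2037 (without netrin-1 WT 3), and both together 33 (without unc5B MUT 1) to 721 (without netrin-1 WT 3). The authors' deposited table gives 900 genes at its own adjusted p under 0.05 for the first pairing and 1294 for the second, with 295 in both, of which 270 have the same sign.

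**Figure D1:**
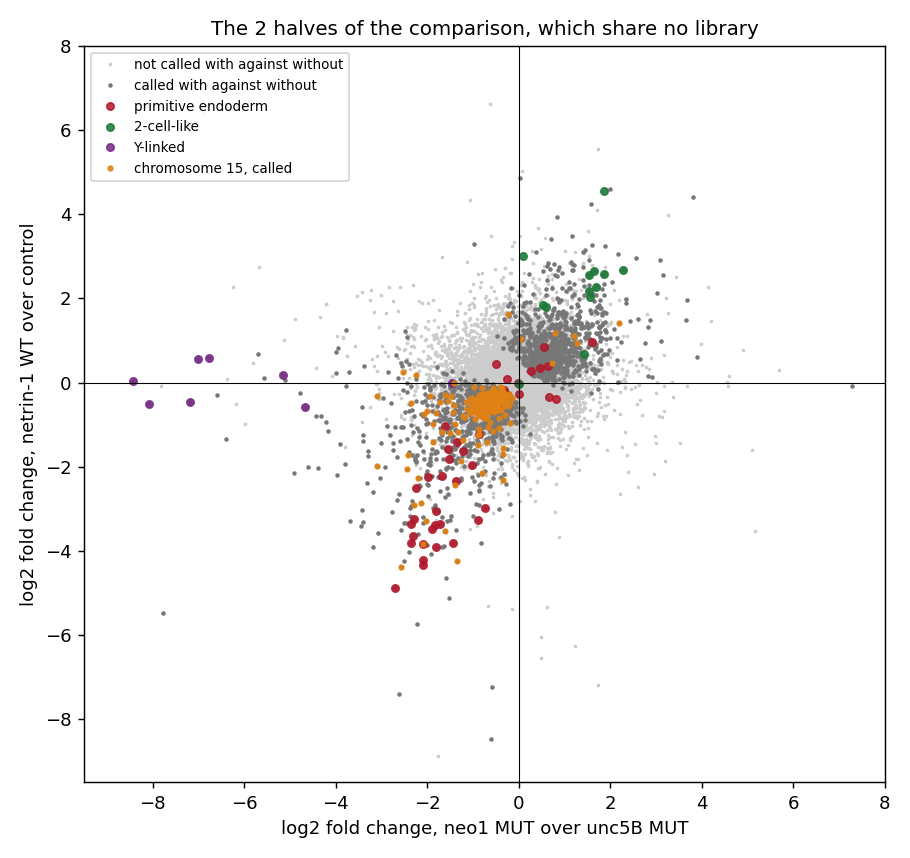
Log2 fold change of each of the 21053 genes tested, neo1 MUT over unc5B MUT on the x axis and netrin-1 WT over control on the y axis. Primitive endoderm genes (red) extend down and to the left, 2-cell-like genes (green) lie mostly up and to the right, called chromosome 15 genes (orange) gather just below 0 on both axes, and Y-linked genes (purple) are low only on the x axis.

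The groups on the same side were also set against each other. Between unc5B MUT and control, the groups without an intact transgene, 6 genes passed the test (0.0285%; 0.0237% higher and 0.00475% lower in unc5B MUT), and 990 had an unadjusted p under 0.05. These were Ntn1, Rhoa, Dag1, Amt, Magee2 and Strada, named after their values were seen. Between netrin-1 WT and neo1 MUT 419 genes passed (1.99%), 336 higher (1.6%) and 83 lower (0.394%) in netrin-1 WT. Of the 2263 genes called between the sides, 2077 were called within neither side with edgeR; DESeq2 called 1135 genes between netrin-1 WT and neo1 MUT and 105 between unc5B MUT and control. The difference between the pairings, tested itself, passed for 178 genes (0.845%; 0.712% above 0 and 0.133% below), 97 of them among the 2263. With 1 library left out these counts ran from 2 (without control 1, unc5B MUT 2 or unc5B MUT 3) to 11 (without netrin-1 WT 3) for unc5B MUT over control, from 147 (without netrin-1 WT 2) to 511 for netrin-1 WT over neo1 MUT, and from 65 (without unc5B MUT 2) to 224 for the difference between the pairings.

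The receptor gene list, with ligands and partners, had 17 of 21 genes tested. Of these 1 was higher, Ntn1, and 1 was lower, Flrt3. Over all genes 4.76% were higher and 5.98% lower. Flrt3 (chr2:140650914-140671469, minus strand), a membrane protein that binds Unc5 receptors and helps cell adhesion, had 2.76, 1.62 and 1.26 CPM in netrin-1 WT, 6.47, 3.56 and 1.05 CPM in neo1 MUT, 18.51, 11.02 and 5.54 CPM in unc5B MUT and 26.2, 18.7 and 5.92 CPM in control. Within each number both intact libraries were below both others, with a log2 fold change of -2.41 ± 0.19 (SE, adjusted p = 0.00010), and both pairings passed the test, at -3.06 for netrin-1 WT over control and -1.77 for neo1 MUT over unc5B MUT. Among 17 cytoplasmic effectors of netrin receptors Ablim1 and Rhoa were higher and Ptk2 and Pitpna lower, with a list median of 0.05. Ablim1, an actin-binding protein named for axon guidance, had 13.7 to 34.1 CPM (median 18.3) in the 6 intact libraries, against 8.12 to 12.4 CPM (median 11.4) in the 6 others. Ptk2, which encodes the focal adhesion kinase FAK and lies on chromosome 15, was lower (log2 fold change -0.30 ± 0.08, SE, adjusted p = 0.037), while Src, at 0.35 ± 0.16, did not pass the test (adjusted p = 0.20). With 1 library left out Ptk2 lost its call in 9 of the 12 fits (adjusted p up to 0.11) and Ablim1 in 1, without unc5B MUT 1 (adjusted p = 0.051). Rhoa, a small GTPase of the cytoskeleton, was higher by 0.41 ± 0.08. Control alone was low, at 298 CPM in netrin-1 WT, 313 in neo1 MUT, 313 in unc5B MUT and 173 in control. Its neighbours on chromosome 9, Dag1 and Amt, were also lowest in control. Dag1 averaged 242 CPM in netrin-1 WT, 237 in neo1 MUT, 255 in unc5B MUT and 121 in control. Amt averaged 47.0 CPM in netrin-1 WT, 61.8 in neo1 MUT, 48.7 in unc5B MUT and 23.0 in control. What this stretch contributed to Rhoa was not tested.

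Primitive endoderm genes were lower in cells with Unc5b-intact netrin-1. Of 45 genes on the lists of primitive endoderm transcription factors and effectors, 41 were tested, and 28 were lower and 2 higher. Over all genes tested 5.98% were lower and 4.76% higher. The median log2 fold change over the 41 was -1.66, against 0.00 over all genes tested, and in 27 of the 28 both intact libraries were below both others within every number, in 21 with all 6 intact libraries below all 6 others. Of the 28, 23 passed in both pairings. Without the block 19 of the 41 passed. The lists were drawn up with earlier results of these data known, so the counts describe them and are not independent support. In bulk RNA, fewer cells of a type and less RNA per cell cannot be told apart. Members named below beyond those the naming rule took were chosen after their values were seen.

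Among the transcription factors, 9 of 12 were lower and 1, Eomes, was higher, with a median of -2.27 and medians of -2.18, -2.13 and -2.26 within numbers 1, 2 and 3. Gata6, the zinc-finger factor at the top of the primitive endoderm programme, had 11.9, 10.8 and 17.1 CPM in netrin-1 WT, 16.7, 13.8 and 10.3 CPM in neo1 MUT, 50.7, 39.1 and 40.04 CPM in unc5B MUT and 78.4, 59.7 and 50.3 CPM in control. Its intact libraries reached at most 17.1 CPM and its others did not go below 39.1 CPM, and its log2 fold change was -1.95 ± 0.15 (SE, adjusted p = 0.00010). Gata4 (chr14:63198922-63271692, minus strand), its close relative, had 3.199, 4.56 and 6.44 CPM in netrin-1 WT, 5.13, 2.88 and 2.62 CPM in neo1 MUT, 13.96, 8.64 and 25.04 CPM in unc5B MUT and 22.7, 13.49 and 34.6 CPM in control, again without overlap (-2.11 ± 0.26, adjusted p = 0.0011). The SOX factor Sox17 (chr1:4490931-4497354, minus strand), needed for the maturation of this tissue, had 1.53, 0.796 and 1.55 CPM in netrin-1 WT, 2.07, 1.62 and 0.787 CPM in neo1 MUT, 10.4, 5.27 and 8.09 CPM in unc5B MUT and 18.99, 10.45 and 10.4 CPM in control, a log2 fold change of -2.86 ± 0.22 (adjusted p = 0.00010).

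Other factors of endoderm were lower as well. Foxa2, a forkhead factor of all endoderm, was at most 0.575 CPM in the intact libraries and at least 1.36 CPM in the others, a fold change of -2.77 ± 0.37. Tcf23 (-2.98 ± 0.22), Foxq1 (-2.61 ± 0.24), Sox7 (-2.42 ± 0.27) and Hnf4a (-1.32 ± 0.20) were lower as well, Hnf4a with overlapping libraries. Klf5, which is also expressed in pluripotent cells, had 119.8 CPM in netrin-1 WT, 119 in neo1 MUT, 143 in unc5B MUT and 155 in control on average (adjusted p = 0.054 with edgeR, though it passed with DESeq2 and limma-voom), and Creb3l3 had 0.898 CPM in netrin-1 WT, 1.99 in neo1 MUT, 1.14 in unc5B MUT and 1.19 in control (adjusted p = 0.60). Eomes, a T-box factor also used in mesendoderm and trophectoderm, was higher by 0.51 ± 0.13 and lost its call in 10 of the 12 fits that left out 1 library (adjusted p up to 0.12).

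**Figure D2:**
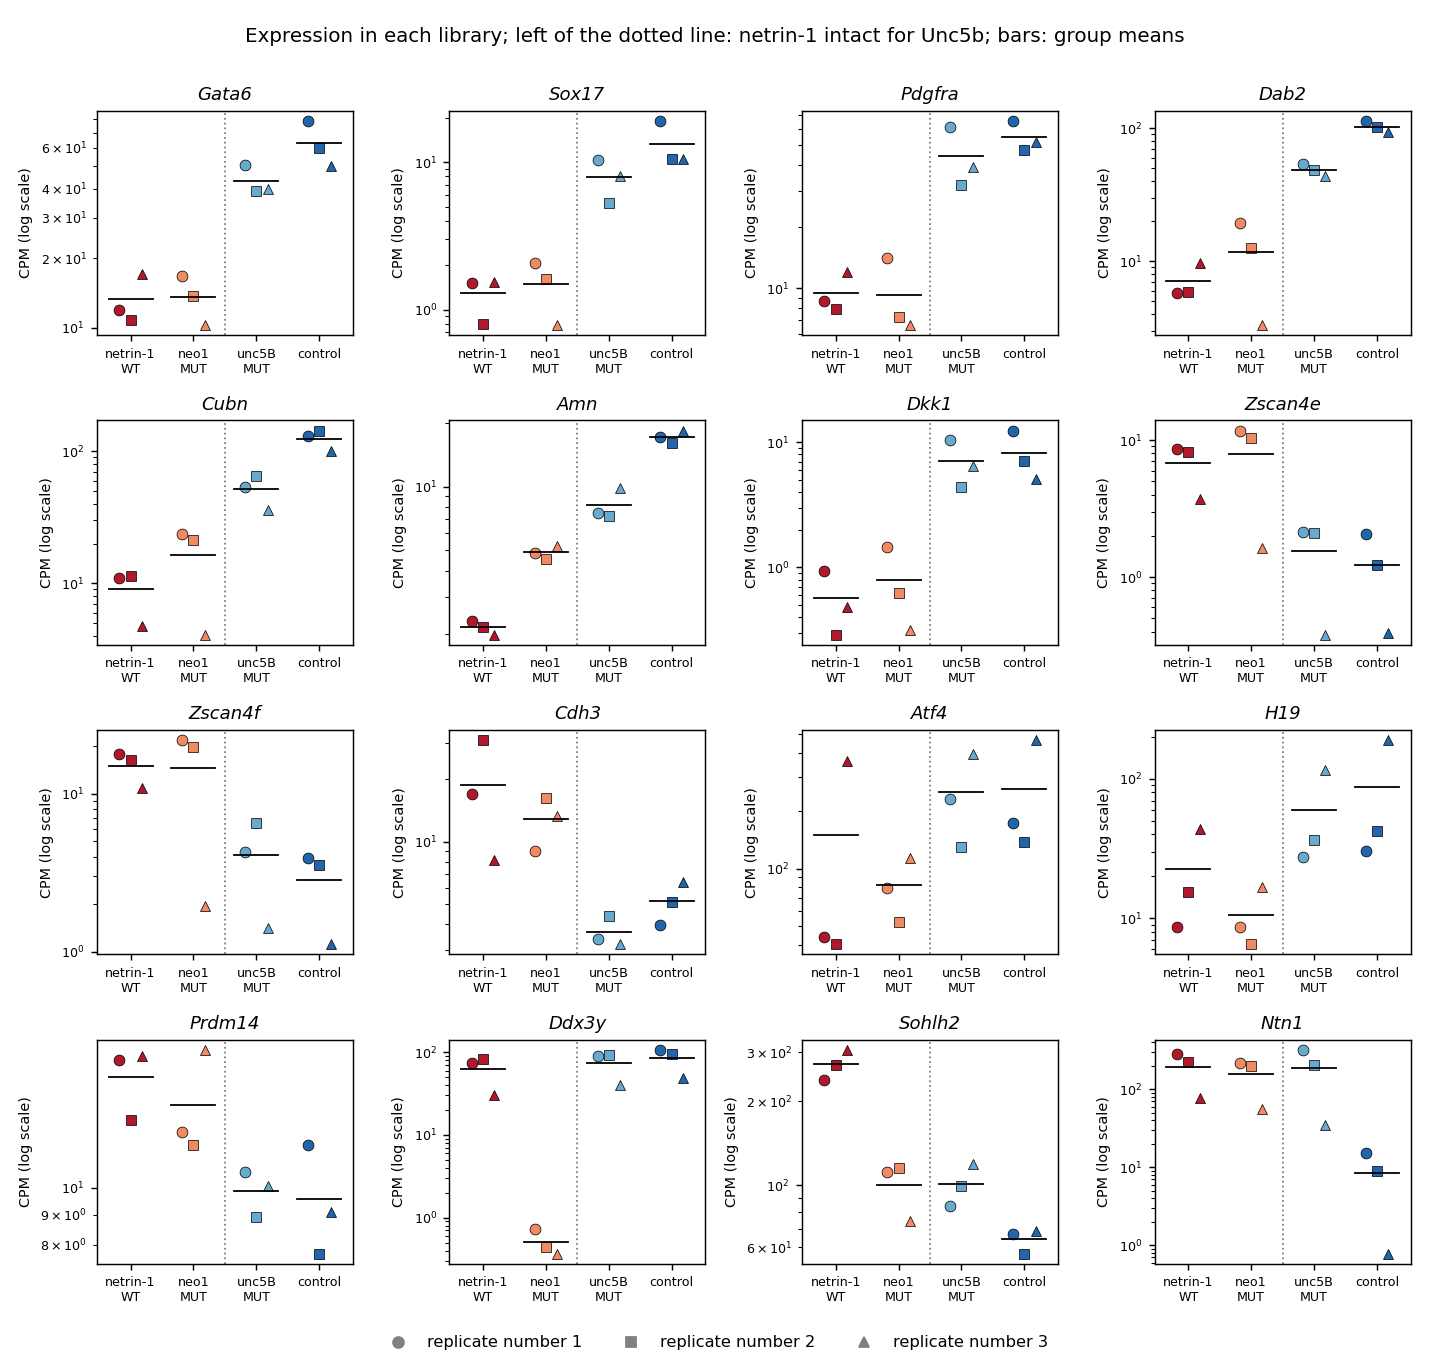
CPM on a log axis in each of the 12 libraries for 16 genes, with the groups netrin-1 WT, neo1 MUT, unc5B MUT and control from left to right, a marker shape for each replicate number and a bar for each group mean. The groups left and right of the dotted line do not overlap for Gata6, Sox17, Pdgfra, Dab2, Cubn, Amn, Dkk1 and Cdh3, while Ddx3y is low only in neo1 MUT, Sohlh2 is highest in netrin-1 WT and Ntn1 is low only in control.

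The receptor Pdgfra (chr5:75152292-75198215, plus strand), by which primitive endoderm cells are often recognised, had 8.64, 7.93 and 11.97 CPM in netrin-1 WT, 14.04, 7.19 and 6.61 CPM in neo1 MUT, 61.1, 32.03 and 38.95 CPM in unc5B MUT and 65.48, 47.47 and 51.8 CPM in control. Its log2 fold change, -2.38 ± 0.17 (SE, adjusted p = 6.5e-05), was close in both pairings (-2.51 for netrin-1 WT over control and -2.25 for neo1 MUT over unc5B MUT). Cubilin and amnionless form the endocytic receptor by which visceral endoderm takes up proteins, and Dab2 is the adaptor that links such receptors to clathrin. Cubn (chr2:13276338-13491813, minus strand) had 10.998, 11.3 and 4.75 CPM in netrin-1 WT, 23.7, 21.2 and 4.09 CPM in neo1 MUT, 53.53, 65.000 and 36.3 CPM in unc5B MUT and 132, 144 and 100.3 CPM in control. Amn (chr12:111271095-111276426, plus strand) had 2.31, 2.15 and 1.99 CPM in netrin-1 WT, 4.83, 4.55 and 5.25 CPM in neo1 MUT, 7.51, 7.27 and 9.83 CPM in unc5B MUT and 17.3, 16.1 and 18.48 CPM in control. Dab2 (chr15:6299788-6440712, plus strand) had 5.71, 5.89 and 9.74 CPM in netrin-1 WT, 19.49, 12.6 and 3.31 CPM in neo1 MUT, 53.4, 48.1 and 43.8 CPM in unc5B MUT and 113, 102 and 93.2 CPM in control. All 3 genes were lowest on average in netrin-1 WT, then neo1 MUT, then unc5B MUT and then control, and no intact library reached the level of another library. Their log2 fold changes were -2.86 ± 0.23 for Cubn, -1.87 ± 0.13 for Amn and -2.96 ± 0.31 for Dab2 (SE), with adjusted p-values of 0.00011, 6.3e-05 and 0.00051. For Amn the pairings differed with edgeR, at -2.99 ± 0.19 for netrin-1 WT over control and -0.74 ± 0.18 for neo1 MUT over unc5B MUT (adjusted p of the difference 0.0025). Of the 41 primitive endoderm genes tested, 18 had an unadjusted p under 0.05 for this difference, and it passed for 10 with DESeq2 and for 3 with limma-voom (Amn, Clic6 and Cubn). Lrp2, the large partner receptor megalin, changed less, by -0.45 ± 0.07.

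The starts of these 3 genes are shown because their proteins act together in endocytosis and all 3 RNAs were lower in the intact groups. RefSeq promoters (GRCm38.p6, 250 bases before to 50 after the start) are given 5′ to 3′ on the gene's strand. Capitals mark the GATA motif, searched as AGATAA or AGATAG or TGATAA or TGATAG on both strands.
Cubn, chr2:13491827-13492126, minus strand: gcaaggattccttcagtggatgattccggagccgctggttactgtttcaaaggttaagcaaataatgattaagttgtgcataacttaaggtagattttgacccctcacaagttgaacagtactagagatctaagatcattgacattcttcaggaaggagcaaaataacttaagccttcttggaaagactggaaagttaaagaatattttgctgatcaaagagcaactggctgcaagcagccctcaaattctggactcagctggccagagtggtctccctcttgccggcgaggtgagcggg
Amn, chr12:111270846-111271145, plus strand: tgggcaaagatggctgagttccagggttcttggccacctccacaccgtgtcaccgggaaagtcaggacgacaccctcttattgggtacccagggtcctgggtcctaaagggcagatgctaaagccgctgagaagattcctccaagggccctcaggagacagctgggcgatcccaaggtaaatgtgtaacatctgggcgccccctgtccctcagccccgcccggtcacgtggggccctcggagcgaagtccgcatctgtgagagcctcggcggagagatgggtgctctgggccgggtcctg
Dab2, first of its 2 promoters, chr15:6299539-6299838, plus strand: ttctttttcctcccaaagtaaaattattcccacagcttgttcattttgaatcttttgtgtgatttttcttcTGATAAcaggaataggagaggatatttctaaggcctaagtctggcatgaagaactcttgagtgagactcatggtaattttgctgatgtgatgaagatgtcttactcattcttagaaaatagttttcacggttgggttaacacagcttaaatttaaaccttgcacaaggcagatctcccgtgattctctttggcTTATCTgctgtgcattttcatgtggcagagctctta
The motif was found 2 times in this Dab2 promoter and not in the windows of Cubn and Amn or in the second Dab2 promoter. Of the 28 lower members 19 had a promoter in the table, with 24 promoters in all, and 5 of these held the motif (20.8%). It was in 20.5% of the promoters of all genes tested and in 29.8% of all 32851 promoters. A match is a description of the letters and not a measured site.

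The effectors that build basement membrane, the sheet that primitive endoderm secretes, were lower too. Col4a1 had 163, 162 and 533 CPM in netrin-1 WT, 267, 141 and 499 CPM in neo1 MUT, 472, 333 and 1602 CPM in unc5B MUT and 396, 495 and 2013 CPM in control, a log2 fold change of -1.42 ± 0.16 (SE, adjusted p = 0.00075), and its neighbour and partner Col4a2 had one of -1.86 ± 0.14. The laminin chains Lama1 (-1.39 ± 0.16) and Lamb1 (-1.48 ± 0.27) and the matrix protein Sparc (-1.56 ± 0.13) were also lower. Lamc1 (-0.25 ± 0.08, adjusted p = 0.080) and Nid1 (-0.03 ± 0.12, adjusted p = 0.91) did not pass with edgeR, and Lamc1 passed with limma-voom. Their levels were 588 CPM in netrin-1 WT, 502 in neo1 MUT, 629.6 in unc5B MUT and 677 in control for Lamc1 and 206 CPM in netrin-1 WT, 109.6 in neo1 MUT, 152 in unc5B MUT and 152 in control for Nid1.

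The effectors with the largest fold changes were Habp2, Aqp8, Hkdc1 and Nostrin. Habp2 (chr19:56287137-56320822, plus strand), a plasma serine protease, had 0.664, 0.371 and 0.242 CPM in netrin-1 WT, 1.62, 0.732 and 0.21 CPM in neo1 MUT, 5.18, 3.92 and 11.95 CPM in unc5B MUT and 7.37, 8.63 and 30.8 CPM in control (-3.80 ± 0.50, adjusted p = 0.0017). Aqp8, a water channel, had 0.105 to 3.01 CPM (median 0.734) in the 6 intact libraries, against 3.69 to 15.7 CPM (median 7.02) in the 6 others. Hkdc1, a hexokinase, had 0.105 to 3.35 CPM (median 1.101) in the 6 intact libraries, against 5.44 to 24.8 CPM (median 9.77) in the 6 others. Nostrin, which controls traffic of nitric oxide synthase, had 0.822 to 3.14 CPM (median 1.34) in the 6 intact libraries, against 6.71 to 21.6 CPM (median 12.3) in the 6 others. None of these 4 genes had an intact library at or above another library. Ihh, a hedgehog ligand of visceral endoderm, was low throughout, at 0.19 CPM in netrin-1 WT, 0.593 in neo1 MUT, 1.13 in unc5B MUT and 1.81 in control (-2.08 ± 0.31). Cldn6, a tight-junction protein, was the 1 effector that was higher, with 4.94 CPM in netrin-1 WT, 4.76 in neo1 MUT, 1.73 in unc5B MUT and 2.41 in control (1.29 ± 0.23, adjusted p = 0.0070). Afp, Ttr, Apoa1 and Thbd did not pass the filter.

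**Figure D3:**
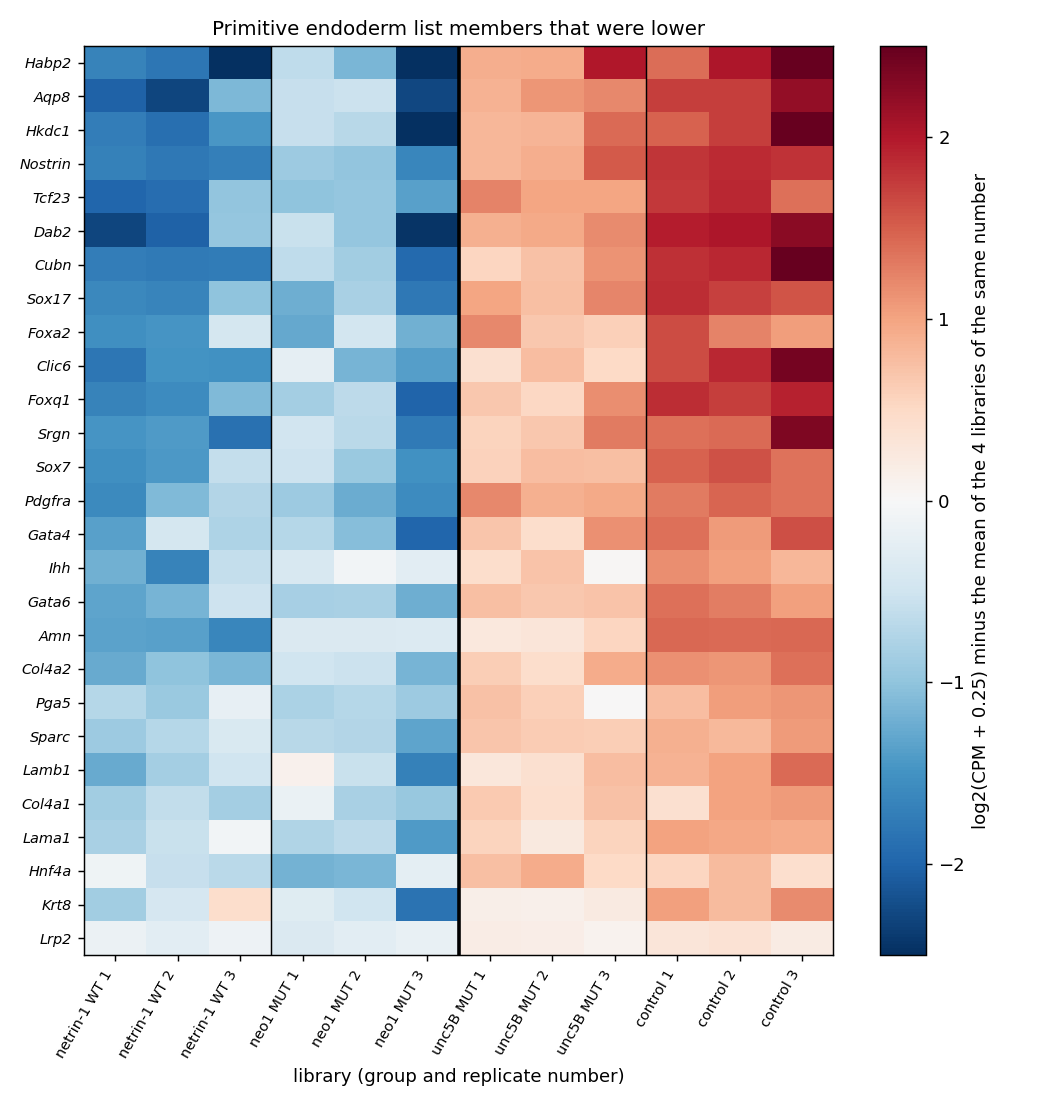
Primitive endoderm genes that were lower (27 of the 28, in rows) in the 12 libraries (columns), as log2(CPM + 0.25) minus the mean of the 4 libraries with the same replicate number, with the intact groups left of the thick line. The 6 left columns are mostly blue (below the mean) and the 6 right columns red (above it), with control deeper red than unc5B MUT in most rows.

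The levels were graded from the intact groups to unc5B MUT and then control, while netrin-1 WT and neo1 MUT overlapped. The 7 defining markers (Gata6, Gata4, Sox17, Sox7, Pdgfra, Dab2 and Foxa2) summed to 30.6 to 48.2 CPM in netrin-1 WT, 24.2 to 59.9 CPM in neo1 MUT, 138 to 197 CPM in unc5B MUT and 241 to 312 CPM in control. The unc5B MUT sums thus lay between the intact groups and control, with no overlap on either side. None of the 41 genes passed the test between unc5B MUT and control with edgeR, although 15 had an unadjusted p under 0.05, and 3 passed with DESeq2 (Amn, Clic6 and Cubn) and 1 with limma-voom (Amn). Between netrin-1 WT and neo1 MUT 2 of the 41 passed, Amn and Nid1. Markers of other cell types were summed in the same way. Fibroblast or feeder markers, of which 3 of 8 were tested, summed to 5.57 to 13.6 CPM in netrin-1 WT, 4.40 to 7.61 CPM in neo1 MUT, 9.30 to 9.78 CPM in unc5B MUT and 7.81 to 18.04 CPM in control. Within every number netrin-1 WT was below control (5.78 against 7.81, 5.57 against 8.23 and 13.6 against 18.04 CPM) and neo1 MUT below unc5B MUT (4.40 against 9.78, 4.42 against 9.30 and 7.61 against 9.62 CPM). Thy1 was the most abundant of these markers in every library except neo1 MUT 2, where Col1a1 was, while Col3a1, Postn, Twist2, Lum and Dcn were at or near 0, and what such cells contributed to the primitive endoderm values was not tested. Trophectoderm markers, 4 of 5 tested, summed to 6.52 to 25.3 CPM in netrin-1 WT, 3.01 to 11.9 CPM in neo1 MUT, 2.32 to 16.4 CPM in unc5B MUT and 5.02 to 25.9 CPM in control. Neural markers, 4 of 5 tested, summed to 97.6 to 128 CPM in netrin-1 WT, 109.9 to 117 CPM in neo1 MUT, 102 to 180 CPM in unc5B MUT and 48.0 to 125 CPM in control.

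Zscan4 genes of the 2-cell-like state were higher. Of 13 tested members of the 2-cell-like list 6 passed the test, all of them higher in the intact groups (4.76% of all genes were higher), and the list median was 1.85 on the log2 scale. The 6 were Zscan4a, Zscan4c, Zscan4d, Zscan4e, Zscan4f and Usp17le. In the first pairing, netrin-1 WT over control, 6 of the 13 were higher, and in the second, neo1 MUT over unc5B MUT, 2 were. Zscan4 genes encode zinc-finger proteins that appear in the 2-cell embryo and in bursts in rare stem cells, where they act on telomeres. Zscan4e (chr7:11306378-11310682, minus strand) had 8.56, 8.25 and 3.73 CPM in netrin-1 WT, 11.7, 10.4 and 1.63 CPM in neo1 MUT, 2.14, 2.11 and 0.38 CPM in unc5B MUT and 2.08, 1.22 and 0.391 CPM in control. Within each number both intact libraries were above both others, although number 3 was low in all groups, and the log2 fold change was 2.47 ± 0.24 (SE, adjusted p = 0.00030). Zscan4f had 18.01, 16.4 and 10.9 CPM in netrin-1 WT, 21.9, 19.7 and 1.94 CPM in neo1 MUT, 4.29, 6.58 and 1.41 CPM in unc5B MUT and 3.92, 3.52 and 1.12 CPM in control, a fold change of 2.15 ± 0.32. Zscan4d (2.22 ± 0.28) and Zscan4a (2.05 ± 0.30) were higher too, and with pseudogenes 8 Zscan4 entries passed. These are near-identical neighbours on chromosome 7, so how estimated counts were divided among them is uncertain, and they are better read as 1 locus. Gm4340, a related 2-cell gene, had 5.44, 0.636 and 10.8 in netrin-1 WT, 3.14, 3.77 and 0 in neo1 MUT, 0.386, 1.26 and 0 in unc5B MUT and 0.952, 0 and 0 CPM in control and did not pass with edgeR (adjusted p = 0.088), though it passed with DESeq2. Dux itself, listed as Duxf3, averaged 0.308 CPM in netrin-1 WT, 0.366 in neo1 MUT, 0.128 in unc5B MUT and 0.19 in control and did not pass (adjusted p = 0.099). Without the block none of the 13 passed with edgeR, although 8 had an unadjusted p under 0.05; with the block 9 passed with DESeq2 and 7 with limma-voom.

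Pluripotency genes changed in both directions. Among 16 naive genes 4 were higher and 1 lower (median 0.10). Among 11 core genes Sox2 was higher and Dppa2 and Trim28 lower (median -0.12). Among 11 formative and primed genes Pou3f1 was higher and Dnmt3b and Dnmt3a lower (median 0.22). Over all genes 4.76% were higher and 5.98% lower. Pou5f1, the gene for Oct4, had 1109, 979 and 1281 CPM in netrin-1 WT, 1260.2, 969 and 1487 CPM in neo1 MUT, 1317, 1098 and 1472 CPM in unc5B MUT and 1303, 1081 and 1398 CPM in control (-0.12 ± 0.06, adjusted p = 0.23), with overlapping groups. Nanog had 238, 183 and 441 CPM in netrin-1 WT, 208, 105 and 128 CPM in neo1 MUT, 266, 154 and 157 CPM in unc5B MUT and 269, 137 and 128 CPM in control (0.17 ± 0.21, adjusted p = 0.65), with its highest value in 1 library, netrin-1 WT 3. Sox2 was higher by 0.43 ± 0.10 (adjusted p = 0.019), with its highest mean in netrin-1 WT, at 557 CPM in netrin-1 WT, 383 in neo1 MUT, 356 in unc5B MUT and 322 in control, and the first pairing passed while the second did not (0.75 for netrin-1 WT over control and 0.11 for neo1 MUT over unc5B MUT). Sox2 lost its call in 8 of the 12 fits that left out 1 library, Trim28 in 10 and Pou3f1 in 8. Sox2 lies in the part of chromosome 3 described further on.

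Of the 4 naive genes that were higher, which also include Tcl1 and Dppa3, Prdm14 and Fgf4 were above in both intact groups within every number. Prdm14, which represses differentiation and DNA methylation genes, had 16.46, 13.02 and 16.7 CPM in netrin-1 WT, 12.4, 11.8 and 17.2 CPM in neo1 MUT, 10.6, 8.91 and 10.1 CPM in unc5B MUT and 11.8, 7.72 and 9.102 CPM in control (0.58 ± 0.13, adjusted p = 0.016). Fgf4, the growth factor that primitive endoderm precursors respond to, averaged 172 CPM in netrin-1 WT, 169 in neo1 MUT, 125 in unc5B MUT and 132 in control (0.42 ± 0.08). The methyltransferase genes Dnmt3b (-0.54 ± 0.09) and Dnmt3a (-0.45 ± 0.09) were lower, Dnmt3b within every number at 102 to 186 CPM (median 153) in the 6 intact libraries, against 144 to 245 CPM (median 223) in the 6 others. Dppa3, a maternal-effect gene, was higher (1.03 ± 0.25) with netrin-1 WT alone standing apart, at 5.19 CPM in netrin-1 WT, 1.05 in neo1 MUT, 1.02 in unc5B MUT and 1.34 in control. Tbx3 was lower (-0.60 ± 0.16) with neo1 MUT alone standing apart, at 135 CPM in netrin-1 WT, 66.1 in neo1 MUT, 136 in unc5B MUT and 137 in control. Dppa2, which opens chromatin for 2-cell genes, was lower (-0.74 ± 0.16), with 90.54 CPM in netrin-1 WT, 91.2 in neo1 MUT, 157 in unc5B MUT and 159 in control. With 1 library left out Dppa3 and Tbx3 each lost their call in 9 of the 12 fits, Prdm14 in 2 (without unc5B MUT 1, adjusted p = 0.063, or control 2) and Dppa2 in 1 (without netrin-1 WT 1, adjusted p = 0.053).

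Several genes of the unfolded protein and amino acid stress response were lower. Of 16 tested entries 7 passed the test, all of them lower (5.98% of all genes were lower), with a median of -0.64. In the first pairing, netrin-1 WT over control, 3 of the 16 passed, and in the second, neo1 MUT over unc5B MUT, 1 did. Atf4 (chr15:80255184-80257541, plus strand), the transcription factor that carries this response, had 44.2, 40.50 and 364 CPM in netrin-1 WT, 79.7, 52.8 and 113 CPM in neo1 MUT, 229, 129 and 395 CPM in unc5B MUT and 173, 138 and 465 CPM in control. Number 3 was high in all groups, and within each number both intact libraries were below both others (-1.36 ± 0.27, adjusted p = 0.012). Atf4 lies on chromosome 15, described further on, and what that chromosome contributed to its level was not tested. Chac1, which degrades glutathione, had 1.501, 1.22 and 9.93 CPM in netrin-1 WT, 5.299, 3.71 and 4.51 CPM in neo1 MUT, 8.88, 6.84 and 16.6 CPM in unc5B MUT and 7.88, 7.198 and 26.2 CPM in control (-1.49 ± 0.31). Herpud1 (-0.96 ± 0.15), Psat1 (-0.75 ± 0.12), Trib3 (-0.73 ± 0.21), Sesn2 (-0.57 ± 0.11) and Atf3 (-1.59 ± 0.30) were lower too, each within every number. The chaperone Hspa5 (-0.30 ± 0.09, adjusted p = 0.063) and Asns (-0.02 ± 0.08, adjusted p = 0.91) did not pass with edgeR; Hspa5 passed with DESeq2 and with limma-voom. Chac1 lost its call without unc5B MUT 1 (adjusted p = 0.052). Without the block none of the 16 passed with edgeR, although 4 had an unadjusted p under 0.05; with the block 8 passed with DESeq2 and 8 with limma-voom.

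Among signalling genes the largest difference was Dkk1 (chr19:30545863-30549665, minus strand), a secreted inhibitor of Wnt receptors that visceral endoderm also makes. It had 0.935, 0.292 and 0.485 CPM in netrin-1 WT, 1.45, 0.628 and 0.315 CPM in neo1 MUT, 10.4, 4.38 and 6.41 CPM in unc5B MUT and 12.3, 7.03 and 5.08 CPM in control. The intact libraries reached at most 1.45 CPM and the others at least 4.38 CPM, and the log2 fold change was -3.54 ± 0.23 (SE, adjusted p = 5.3e-05), with -3.90 for netrin-1 WT over control and -3.18 for neo1 MUT over unc5B MUT. The other Wnt targets did not share this: of 13 tested, 3 were higher (Cdx1, Nkd2 and Tcf7) and 2 lower (Dkk1 and Ascl2), with a median of -0.03. Over all genes 4.76% were higher and 5.98% lower. For Cdx1 neo1 MUT alone stood apart, at 1.97 CPM in netrin-1 WT, 5.45 in neo1 MUT, 1.54 in unc5B MUT and 1.88 in control. Nkd2 lost its call in 8 of the 12 fits that left out 1 library.

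Of 15 genes that respond to ERK, the kinase downstream of FGF receptors, 1 was higher and 2 lower, beside 4.76% of all genes higher and 5.98% lower. Phlda1, a feedback gene of growth factor signalling, had 15.99, 13.4 and 12.6 CPM in netrin-1 WT, 15.7, 14.9 and 7.34 CPM in neo1 MUT, 32.4, 23.97 and 26.1 CPM in unc5B MUT and 31.54, 26.3 and 20.7 CPM in control, with no overlap (-1.02 ± 0.14, adjusted p = 0.0018). Spry2, an inhibitor of the same pathway, had 39.2 to 60.8 CPM (median 51.2) in the 6 intact libraries, against 63.7 to 84.7 CPM (median 73.6) in the 6 others (-0.58 ± 0.09). Its relative Spry1, on chromosome 3, was higher, with netrin-1 WT alone standing apart (32.9 CPM in netrin-1 WT, 19.3 in neo1 MUT, 18.48 in unc5B MUT and 16.4 in control); it lost its call without unc5B MUT 1 (adjusted p = 0.056) or unc5B MUT 2. Among Nodal pathway genes, the secreted Nodal inhibitor Lefty2 was lower (-1.05 ± 0.23) and Skil, which restrains SMAD proteins, higher (0.63 ± 0.13), though not without unc5B MUT 1 (adjusted p = 0.061). Of 11 LIF and STAT3 genes Pim1 was higher (0.55 ± 0.08) and the LIF receptor gene Lifr lower (-0.42 ± 0.07); Lifr lies on chromosome 15. None of 10 BMP and Id genes passed with edgeR, 3 had an unadjusted p under 0.05, and 1, Smad6, passed with DESeq2 and with limma-voom; Id1 averaged 16.8 CPM in netrin-1 WT, 13.4 in neo1 MUT, 21.3 in unc5B MUT and 19.7 in control.

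The lists in the next sentences held 1 to 4 called genes each, of 8 to 16 tested, beside 4.76% of all genes higher and 5.98% lower. Of 13 integrin genes Itgav (0.51 ± 0.09) and Itga9 (0.48 ± 0.11) were higher and Itga5 (-0.62 ± 0.10) and Itgb5 (-0.63 ± 0.10) lower. Of 14 apoptosis genes Bid, whose product carries death receptor signals to mitochondria, was higher at 35.04 to 60.1 CPM (median 42.9) in the 6 intact libraries, against 22.7 to 36.2 CPM (median 26.8) in the 6 others, and Bad (-0.66 ± 0.15) and Birc5 (-0.67 ± 0.11) were lower. Of 14 p53 targets Zmat3 (0.42 ± 0.08) was higher and Phlda3 (-0.37 ± 0.11) lower. Of 16 cholesterol synthesis genes 3 were lower, Sqle and Cyp51 among them. Sqle, on chromosome 15, had 118 to 191 CPM (median 165) in the 6 intact libraries, against 193 to 285 CPM (median 253) in the 6 others (-0.65 ± 0.07). Of 15 glycolysis and hypoxia entries 1 was higher, Slc2a3 (1241 CPM in netrin-1 WT, 742 in neo1 MUT, 533 in unc5B MUT and 707 in control). Of 8 mesendoderm genes Eomes and Tbx6 were higher and Foxa2 lower. Of 8 neuroectoderm genes Sox21 was higher and Nes, the gene for the filament protein nestin, lower. In the first pairing 1 of these 8 passed, higher, and in the second 0. Sox21 also differed between netrin-1 WT and neo1 MUT with DESeq2 and with limma-voom, though not with edgeR. Of 12 germline genes Sohlh2 was higher and Hormad1 lower. Of 11 trophectoderm genes Plac1 (-2.64 ± 0.49) and the keratin gene Krt8 (-1.04 ± 0.27) were lower. Plac1 averaged under 1 CPM over all libraries and did not pass with DESeq2. Of 10 fibroblast and feeder genes Fn1, the gene for fibronectin, was higher and Thy1 and Vim lower. In the first pairing 0 of these 10 passed, and in the second 4 were lower and 0 higher. Vim also differed between netrin-1 WT and neo1 MUT with DESeq2, though not with edgeR. Of 13 mitochondrially encoded mRNAs mt-Co1, mt-Co2 and mt-Atp6 were lower, with a median of -0.31. Over the 12 fits that left out 1 library, calls were lost in 10 for Phlda3, 9 for Nes, 8 for Krt8 and mt-Co2, 7 for Bad, Hormad1 and mt-Atp6, 6 for Itga9 and Fn1, 5 for mt-Co1, 4 for Cyp51 and 1 for Thy1 (without unc5B MUT 1, adjusted p = 0.050).

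Of 16 imprinted genes 3 passed the test, all of them lower (5.98% of all genes were lower). H19 (chr7:142575529-142578143, minus strand), a maternally expressed noncoding RNA, had 8.66, 15.4 and 43.7 CPM in netrin-1 WT, 8.67, 6.51 and 16.6 CPM in neo1 MUT, 27.6, 36.6 and 117 CPM in unc5B MUT and 30.4, 42.1 and 189.6 CPM in control. It was highest in number 3 of every group, and within each number both intact libraries were below both others, with a log2 fold change of -2.03 ± 0.19 (SE, adjusted p = 0.00025) and -1.80 for netrin-1 WT over control and -2.26 for neo1 MUT over unc5B MUT. Dlk1, a Notch-related growth regulator, averaged 2.16 CPM in netrin-1 WT, 0.757 in neo1 MUT, 2.84 in unc5B MUT and 2.86 in control. Peg3, a paternally expressed zinc-finger gene, averaged 52.7 CPM in netrin-1 WT, 26.1 in neo1 MUT, 54.99 in unc5B MUT and 57.3 in control. Both passed in the second pairing and not in the first, with neo1 MUT the lowest group.

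**Figure D4:**
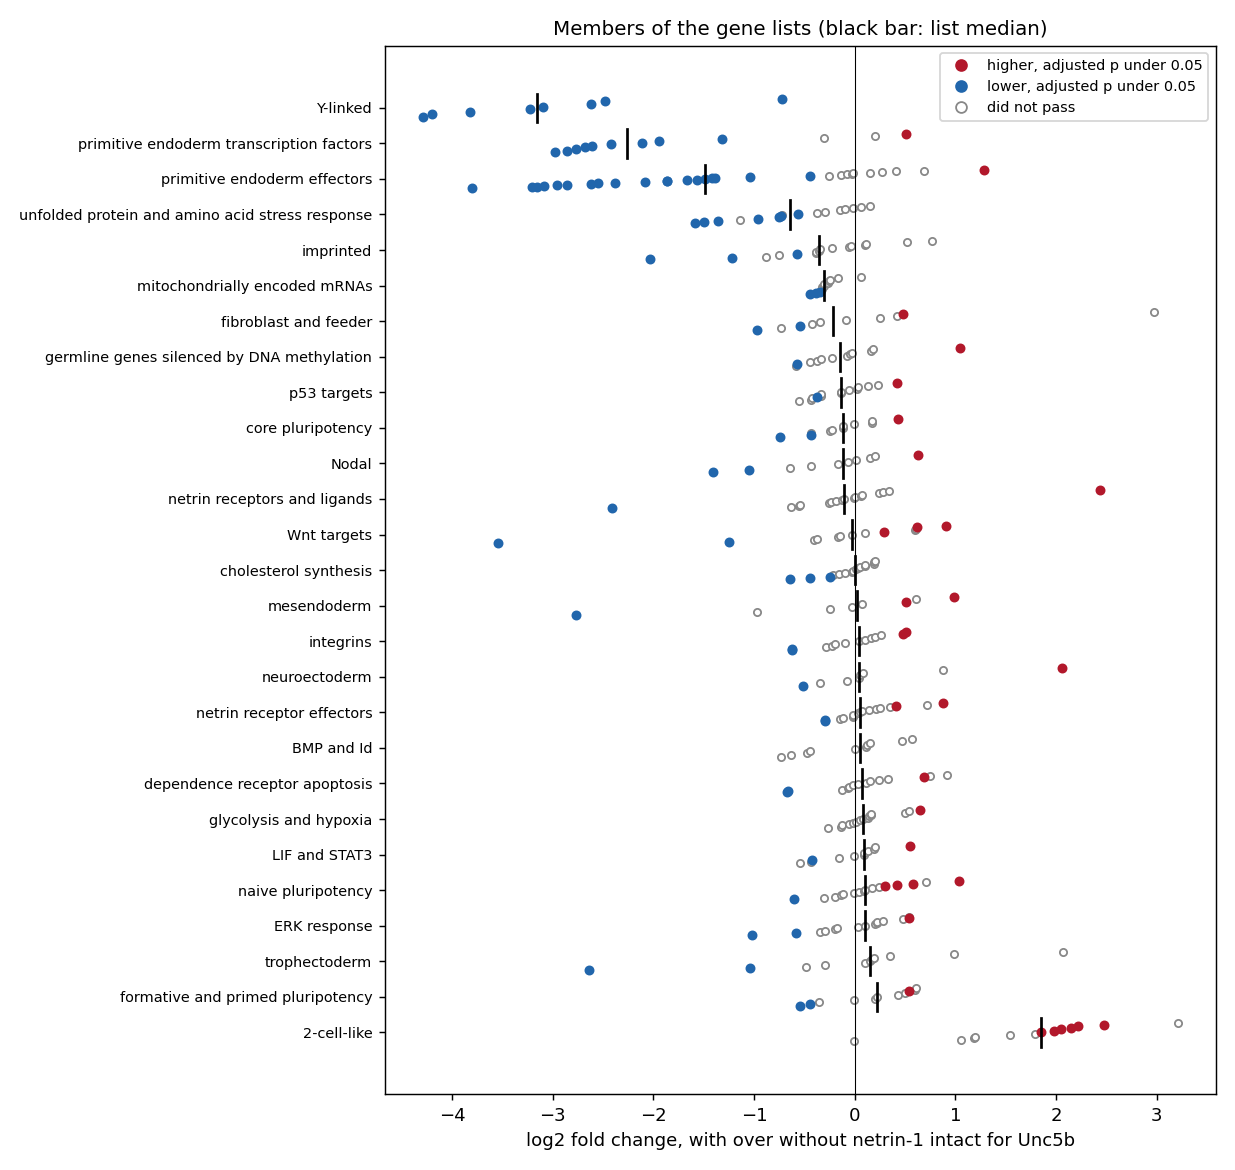
Log2 fold change of every tested member of the 27 gene lists, intact groups over the others, with filled points for genes past an adjusted p of 0.05 and a black bar at each list median. The primitive endoderm and Y-linked lists lie far left of 0, the 2-cell-like list lies right of it, and most other lists are centred near 0.

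Apart from list members, the naming rule took the largest changes that held within every number. Among the higher genes, Cdh3 (chr8:106510891-106557297, plus strand), the gene for P-cadherin, had 17.03, 30.9 and 8.19 CPM in netrin-1 WT, 9.02, 16.3 and 13.3 CPM in neo1 MUT, 3.39, 4.38 and 3.21 CPM in unc5B MUT and 3.98, 5.09 and 6.37 CPM in control, with no overlap (1.78 ± 0.25, adjusted p = 0.0021), and its pairings gave 1.78 for netrin-1 WT over control and 1.79 for neo1 MUT over unc5B MUT. Lrrc31 had the largest fold change of the 12 higher genes the rule took, 2.62 ± 0.37, with 2.52 to 20.02 CPM (median 8.495) in the 6 intact libraries, against 1.09 to 2.92 CPM (median 1.300) in the 6 others. Esx1, an X-linked homeobox gene of placenta and germ line, was higher at 2.07 to 8.29 CPM (median 6.101) in the 6 intact libraries, against 0.686 to 3.63 CPM (median 1.46) in the 6 others. Prss16, a serine protease, had 4.401 to 12.03 CPM (median 9.11) in the 6 intact libraries, against 1.62 to 4.203 CPM (median 2.79) in the 6 others, and Clip3 had 6.08 to 31.1 CPM (median 8.42) in the 6 intact libraries, against 2.06 to 4.56 CPM (median 3.03) in the 6 others, both without overlap. Susd1 (1.61 ± 0.20), Tm6sf1 (1.68 ± 0.25) and Tdrd5 (1.60 ± 0.38) were also among the 12, beside 4 Zscan4 genes, and Tdrd5 lost its call in 5 of the 12 fits that left out 1 library.

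Among the lower genes, Klb (chr5:65348314-65384007, plus strand), which encodes the FGF co-receptor beta-Klotho, had 3.08, 2.04 and 1.11 CPM in netrin-1 WT, 5.49, 2.12 and 0.472 CPM in neo1 MUT, 19.3, 11.3 and 9.07 CPM in unc5B MUT and 28.7, 18.8 and 13.46 CPM in control (-2.93 ± 0.26, adjusted p = 0.00017). Nxf7, an X-linked member of the RNA export family, had 0.689, 0.583 and 0.678 CPM in netrin-1 WT, 0.897, 1.05 and 0.157 CPM in neo1 MUT, 4.15, 4.27 and 4.56 CPM in unc5B MUT and 9.096, 11.3 and 16.9 CPM in control (-3.38 ± 0.32). Bmper, a secreted protein that binds BMPs, had 0.186 to 2.18 CPM (median 0.576) in the 6 intact libraries, against 2.24 to 10.1 CPM (median 7.26) in the 6 others. None of the 3 had an intact library at or above another library. The rest of the 12 were list members and the Y-linked genes Eif2s3y and Ddx3y.

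The Y-linked genes were low in 1 group. All 8 tested members passed between the sides and all 8 passed for neo1 MUT over unc5B MUT. Ddx3y had 74.4, 82.3 and 30.7 CPM in netrin-1 WT, 0.726, 0.445 and 0.367 CPM in neo1 MUT, 89.4, 92.9 and 39.98 CPM in unc5B MUT and 107, 95.6 and 49.4 CPM in control, and Eif2s3y had 52.6, 56.2 and 58.6 CPM in netrin-1 WT, 0.406, 0.157 and 0.105 CPM in neo1 MUT, 67.7, 62.4 and 82.4 CPM in unc5B MUT and 77.7, 66.6 and 96.3 CPM in control. For both genes only the neo1 MUT libraries were near 0, and netrin-1 WT over control did not pass, at -0.47 ± 0.14 and -0.51 ± 0.18 (adjusted p = 0.099 and 0.17). All 8 differed between netrin-1 WT and neo1 MUT, so for these genes the mean over the intact groups describes neither group.

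Genes of chromosome 15 were lower together. Of 805 tested there 251 were lower and 7 higher, 31.2% and 0.87%, and they made up 19.9% of all lower genes but 3.83% of the genes tested. Among the 400 with at least 10 CPM on average 381 were below 0. Their log2 fold changes had a median of -0.40 between the sides, and of -0.34 and -0.49 in the first and second pairing; between unc5B MUT and control it was 0.04. Every 10 Mb stretch with at least 10 such genes had a median between -0.50 and -0.31. Within numbers 1, 2 and 3 the medians were -0.48, -0.46 and -0.29. The count of lower genes was 145 and 136 without netrin-1 WT 1 and 2, 133 and 136 without unc5B MUT 1 and 2, and 153 and 155 without control 1 and 2. Outside this chromosome 996 genes were higher and 1009 lower. Dab2, Krt8, Atf4, Sqle, Itga5, Lifr and Ptk2, described above, lie on it. The log2 fold changes of Dab2, Krt8, Atf4, Sqle and Itga5 lay further below 0 than the chromosome's median, that of Lifr beside it and that of Ptk2 nearer to 0. Chromosome 5 leaned the same way by less, with 104 genes lower and 33 higher, 7.58% and 2.41% of those tested. Its medians were -0.11 in the first pairing and -0.12 in the second. Pdgfra and Klb lie on chromosome 5, and their log2 fold changes, given above, lay further below 0. Several of these genes were named for the size of their changes, so their place beside the medians is only a description. DNA copy number was not measured here, and its part in these values was not tested.

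**Figure D5:**
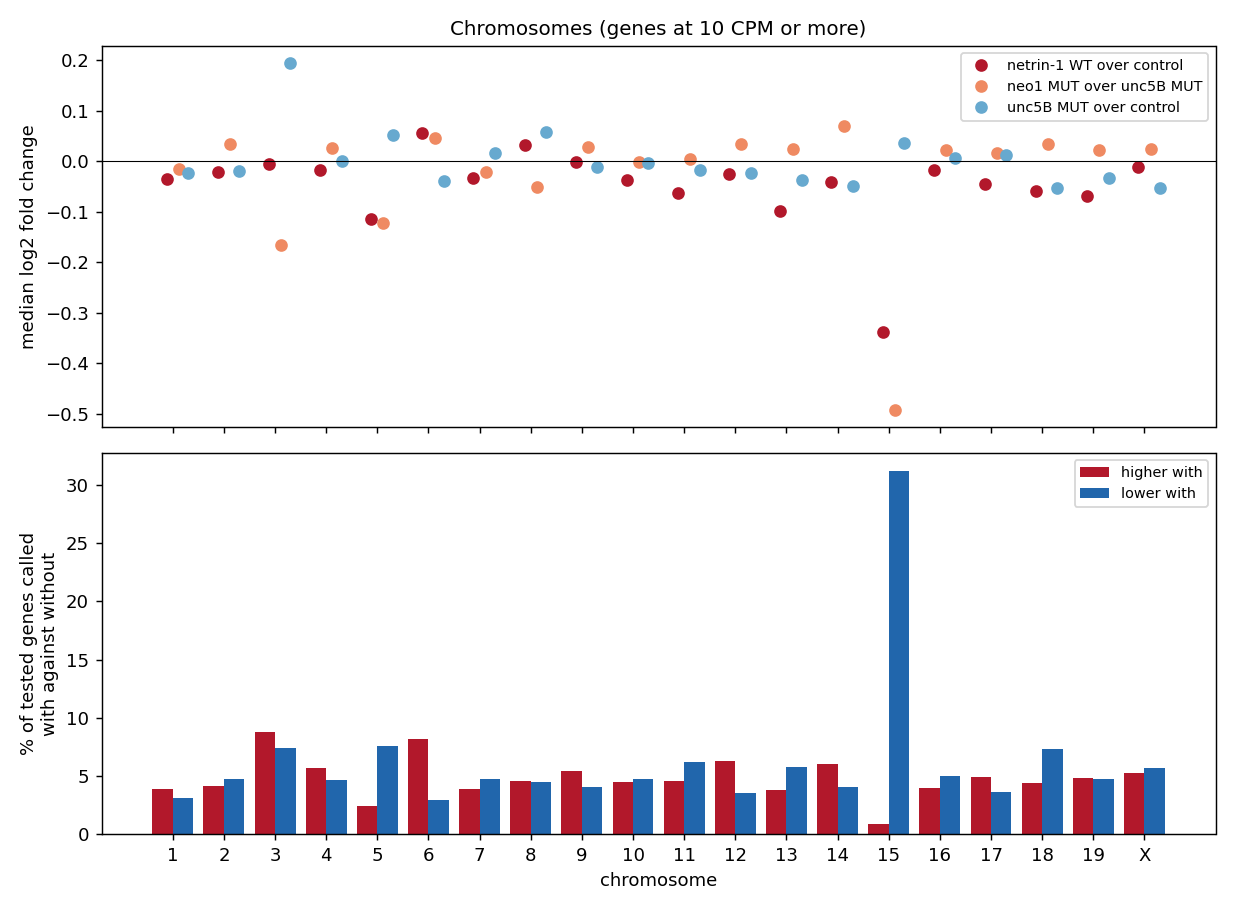
Top: median log2 fold change of genes with at least 10 CPM on each chromosome for netrin-1 WT over control, neo1 MUT over unc5B MUT and unc5B MUT over control. Bottom: percent of tested genes called higher or lower with intact netrin-1. Chromosome 15 is low in both pairings but not for unc5B MUT over control, and 31.2% of its genes were lower.

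On chromosome 3, 93 genes were higher and 78 lower, and a stretch of it differed between the pairings. Over the whole chromosome, at 10 CPM or more, the median was 0.19 for unc5B MUT over control. It was -0.01 in the first pairing and -0.17 in the second. Between 10 and 60 Mb, in the 10 Mb stretches with at least 10 genes, the medians were 0.81 to 1.08 for netrin-1 WT over control and -0.22 to -0.03 for neo1 MUT over unc5B MUT. Sox2, Skil, Spry1, Zmat3 and Sohlh2 lie there, as does Lrrc31, although Lrrc31 passed in both pairings (2.18 in the second). Sohlh2, a germ-cell factor, had 238, 269 and 306 CPM in netrin-1 WT, 111, 115 and 74.4 CPM in neo1 MUT, 84.2, 99.3 and 119 CPM in unc5B MUT and 66.7, 56.9 and 68.46 CPM in control. Its netrin-1 WT libraries were above all others and its control libraries below all others. Nanog, Dppa3, Slc2a3 and Bid lie on chromosome 6 between 120 and 140 Mb. The medians there were 0.40 and 0.43 in the first pairing and 0.10 and 0.02 in the second. In the authors' deposited table Bid was above 0 in both pairings (0.52 in the first and 0.86 in the second), as was Slc2a3 (0.87 and 0.41). Nanog (0.61 and -0.41) and Dppa3 (2.27 and -0.15) were above 0 only in the first. What the stretch contributed to these genes was not tested.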

How the data were processed

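RNA from CGR8 mouse embryonic stem cells was sequenced in 12 libraries, 3 in each of 4 groups, grouped by their labels. The deposited table gives an estimated count per Ensembl gene, of which 53.8% to 58.3% per library are not whole. Per the submitters' processing notes, the reads were handled with tools that include STAR 2.5.2b; the role of each tool, the estimator of the counts and the strand setting are not given in the sources used here. Overlapping and antisense genes therefore cannot be told apart. The authors also deposited a table with log2 fold changes and adjusted p-values. It was used here only for its counts of genes and for the chromosome 6 genes named above.

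The estimated counts were rounded to whole numbers, although a table of whole counts had been foreseen. Genes were filtered with filterByExpr, scaled by TMM and tested with edgeR 4.0.16 (R 4.3.3) by quasi-likelihood tests with Benjamini-Hochberg adjustment at 0.05. One model held the 4 groups and the replicate number; every contrast came from it. Libraries of the same number deviated together (correlations of 0.58 to 0.88), so the number was kept as a block; numbers 1 and 2 also correlated with each other (0.49 to 0.76), and what the number stands for is not given. Names and positions came from GENCODE (GRCm38), which matched 52566 of 52661 IDs. CPM values use TMM-scaled library sizes, with a prior count of 2 in log2 differences within a number. Chromosome medians use genes of at least 10 CPM.

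Named genes were the 12 largest changes in each direction among called genes with at least 5 CPM on the higher side and the same order within every number, 14 preset genes, and up to 4 members per list with at least 1 CPM. The comparison, members and lists were chosen with earlier results of these data known. Alternatives were no replicate block, RLE scaling, other filters, DESeq2 1.42.0, limma-voom (limma 3.58.1), a model of side and number only, a threshold of 0.01, libraries 1 and 2 only, and leaving out each library. The values of some list members are not reported here. The steps were tested on simulated data. Library totals of 22256195 to 59735737 limit precision for genes near 1 CPM.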

Additional observations from a re-analysis of the deposited data

Results flagged for a closer look

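For 9 of the genes named, the difference for netrin-1 WT over control and that for neo1 MUT over unc5B MUT were themselves different (edgeR's quasi-likelihood test of the interaction, Benjamini-Hochberg adjusted p under 0.05 over all genes). Of these, 4 are Y-linked genes that were near 0 in neo1 MUT alone: the log2 differences between the pairings were 6.71 for Ddx3y, 7.57 for Eif2s3y, 7.37 for Uba1y and 8.46 for Zfy1. Fitted values at such low counts depend on the prior count and are no bounds. Ntn1 differed by 4.82, with 4.85 ± 0.36 (SE) in the first pairing and 0.03 ± 0.30 in the second, since control alone had no transgene. Rhoa differed by 0.81, with control the lowest group, as it was for the chromosome 9 neighbours Dag1 and Amt. Amn differed by -2.25, with -2.99 ± 0.19 in the first pairing and -0.74 ± 0.18 in the second, and was lower in both. Sohlh2 differed by 2.07 and Zmat3 by 1.03; both lie in the stretch of chromosome 3 that was high in netrin-1 WT, and what that stretch contributed to them was not tested. Groups of 3 libraries were not tested for single outlying libraries.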

How the results depend on the processing

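The replicate number mattered most. With no replicate block, 129 genes passed (31 higher, 98 lower), all among the 2263. The first pairing then called 21 genes, the second 28, both 0, netrin-1 WT against neo1 MUT 16, unc5B MUT against control 0 and the difference between the pairings 17; edgeR without the block gave 2046 genes an unadjusted p under 0.05 between the sides, and DESeq2 with the block called 588 in both pairings. It left 11 primitive endoderm effectors, 0 of the 2-cell-like list, 0 of the stress list and 13 chromosome 15 genes. DESeq2 called 3409 genes (pairings 1737 and 2180, both 588, within sides 1135 and 105, difference 693), and limma-voom 1221 and 1769 in the pairings, 409 in both and 299 for the difference. No filter gave 24 between unc5B MUT and control and 315 for the difference. At an adjusted p of 0.01 the counts were 676, pairings 221 and 170, both 33, within sides 124 and 3, difference 74, stress list 3 and chromosome 15 97. Libraries numbered 1 and 2 alone gave 5354 genes, pairings 3450 and 2132, both 1020, unc5B MUT against control 16 and difference 366. RLE scaling (2244), a filter of at least 1 CPM in 3 libraries (2303) and side and number as the only terms (1597) left the total within 1.5 times.

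Leaving out 1 library at a time gave 848 to 4210 genes, 211 to 1861 and 133 to 2037 in the pairings, 33 to 721 in both, 147 to 511 and 2 to 11 within sides, 65 to 224 for the difference and 133 to 356 on chromosome 15. The lists then had 9 to 10 lower primitive endoderm factors, 18 to 19 lower effectors, 6 to 7 higher 2-cell-like and 5 to 7 lower stress genes. Of 88 named genes that passed, 59 passed in each of these fits, and without the block 66 did not pass. No result changed sign where it passed. The cause of these differences was not tested. A group of 2 libraries is assumed to vary like the others.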
